A study of Mus musculus with 2 samples.

Results

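The cell cycle genes described here are 46 genes of DNA replication and mitosis, chosen by symbol from a set list and each found once among the 31053 genes of the count matrices. They cover the MCM helicase and other replication fork proteins, nucleotide synthesis, cyclins and Cdk1, mitotic kinases, the kinetochore, the spindle, the mitotic ubiquitin ligase, and the tubulin-related Stmn1 and Tubb5. Their levels were read in whole lungs of mice aged 5 weeks, profiled by droplet single-cell RNA sequencing with 3' chemistry, in which each captured transcript carries a unique molecular identifier (UMI). The first group was Nkx2.1 Cre;Lkb1f/f, mice with floxed Lkb1 alleles and Cre under control of Nkx2.1, called the Cre library below. The second was Lkb1f/f, the same floxed alleles without Cre, called the control library. The Nkx2.1 gene is active in progenitors of the lung epithelium, so Cre acts in that lineage, while immune, endothelial and mesenchymal cells of the Cre lungs are not of it. Each genotype is 1 library made from 3 pooled mice. No spread between replicates could be had and nothing was tested, and a genotype difference cannot be told apart from a difference of mice, pool or library.

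A dividing cell first loads the MCM helicase onto replication origins, then makes nucleotides and copies its DNA in S phase, and then builds up cyclin B, Cdk1, kinetochore and spindle proteins for mitosis. Replication genes are known to be under E2F control, and many mitotic genes carry CCAAT boxes and a cell cycle homology region in their promoters. In the adult lung most epithelial, endothelial and stromal cells rest, while AT2 cells, the surfactant-producing progenitors of the alveolus, can divide, and alveolar macrophages renew locally.

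The Cre library held 14712 kept cells with a median of 3251 UMIs, and the control library held 12448 kept cells with a median of 3611 UMIs. Cells were named from their own marker genes, none of them a cell cycle gene, and 25 classes had at least 50 cells in both libraries. The libraries shared 68 cell barcodes. Sftpc, a surfactant transcript of AT2 cells, had a UMI in 22840 of all kept cells, so free RNA was widespread. Stk11, the gene of Lkb1, stood in AT2-like cells at 29.5 CPM in the Cre library and at 49.4 CPM in the control library, a fold of 0.596 (0.529 to 0.672). The fold was 0.589 (0.358 to 0.982) in AT1-like, 1.07 (0.801 to 1.43) in club or secretory-like and 0.921 (0.641 to 1.32) in ciliated-like cells, also of the epithelium. Its 3' tags may lie outside the deleted part, so this level checks little. CPM is the usual count per total UMIs, taken for a gene or gene sum within its class and library. Values in parentheses are exact 95% intervals, which take in the error of counting and no other; since 1 dividing cell gives many of these UMIs at once, they are too narrow for sums.

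Promoters of the genes show where their common sequence features lie. RefSeq promoters (GRCm38.p6) were found for 38 of the 46 genes, with none for Stmn1, Ccne2, Mcm4, Aurkb, Tpx2, Gins2, Kif20a and Ccna2. The searched motifs, on both strands, were the CCAAT box (CCAAT), the cell cycle homology region (TTTGAA or TTCGAA) and an E2F site (TTCCCGC or TTGGCGC). They do not overlap in the sequences below, which are examples from several roles and are not typical of the set. Each is the 100 bases before the start site, 5′ to 3′ on the gene's strand, with matches in capitals whichever strand they were found on. The first 4 genes act in mitosis, and each shows a CCAAT box and the homology region, as 6 of 24 mitotic promoters do. The last 3 act in replication or its chromatin, and each shows a CCAAT box and the E2F motif. Only 3 of 15 replication promoters hold that E2F motif in these 100 bases.
Top2a, chr11:99024190-99024289, minus strand: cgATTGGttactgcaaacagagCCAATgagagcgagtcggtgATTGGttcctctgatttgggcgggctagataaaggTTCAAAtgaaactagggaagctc
Cdk1, chr10:69352913-69353012, minus strand: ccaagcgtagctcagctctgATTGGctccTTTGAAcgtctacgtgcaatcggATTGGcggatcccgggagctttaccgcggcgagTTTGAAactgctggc
Ube2c, chr2:164769829-164769928, plus strand: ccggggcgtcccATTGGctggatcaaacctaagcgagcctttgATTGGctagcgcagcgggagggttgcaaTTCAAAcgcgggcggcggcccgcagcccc
Cdc20, chr4:118437344-118437443, minus strand: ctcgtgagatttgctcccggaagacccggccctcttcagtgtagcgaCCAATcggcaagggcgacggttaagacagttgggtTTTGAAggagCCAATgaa
Mcm6, chr1:128359706-128359805, minus strand: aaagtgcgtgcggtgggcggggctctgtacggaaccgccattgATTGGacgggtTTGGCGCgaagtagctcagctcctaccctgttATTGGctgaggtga
Rrm1, chr7:102441595-102441694, plus strand: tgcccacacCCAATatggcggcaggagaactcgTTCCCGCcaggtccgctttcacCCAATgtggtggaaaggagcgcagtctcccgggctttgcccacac
Uhrf1, chr17:56303237-56303336, plus strand: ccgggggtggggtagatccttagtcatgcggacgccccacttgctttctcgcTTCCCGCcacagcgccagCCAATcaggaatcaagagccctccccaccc

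In these 100 bases, a CCAAT box was present in 19 of 24 promoters of the mitotic genes (79.2%) and in 10 of 15 promoters of the replication genes (66.7%), against 18.9% of all 32851 promoters in the table. The homology region was in 7 of the 24 mitotic promoters (29.2%) and in 1 of the 15 replication promoters, against 6.13% of all promoters. The E2F motif was in 1 mitotic promoter and in 3 replication promoters (20%), against 2.59% of all. In the 250 bases before the start site it was in 3 of 24 mitotic and 7 of 15 replication promoters (46.7%), against 5.62% of all. The CCAAT box was thus the commonest of these motifs in both sets. These are matches of letters and not measured binding sites.

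Over all kept cells the gene sum was higher in the Cre library, and nearly every gene moved a little rather than a few moving far. The 46 genes held 80695 UMIs or 1079 CPM (1072 to 1087) in the Cre library and 60464 UMIs or 877 CPM (869.6 to 883.6) in the control library, a fold of 1.23 (1.22 to 1.24). The 15 replication genes stood at 274 CPM in the Cre library and 218 CPM in the control library. The 27 mitotic genes stood at 379 CPM in the Cre library and 316 CPM in the control library. Stmn1, which binds tubulin dimers, and Tubb5, a beta tubulin with near-identical relatives that make its count uncertain, held 38.9% of the UMIs of the set in the Cre library and 38.6% in the control library. Cre CPM was above control CPM for 43 of the 46 genes, beside 64.1% of all genes with a UMI. At least 1.5-fold above the median of all genes stood 2 of the 46, beside 12.1% of all genes, and none stood as far below it, beside 8.34%.

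By role, the proliferation markers and the S phase enzymes were all higher. Mki67, the antigen of the Ki-67 stain (ENSMUSG00000031004, chromosome 7, 135689784 to 135716361, minus strand, GRCm38), was at 31.3 CPM in the Cre library and 22.7 CPM in the control library. Top2a, the topoisomerase that untangles sister chromatids (ENSMUSG00000020914, chromosome 11, 98992943 to 99024189, minus strand), was at 41.4 CPM in the Cre library and 31.0 CPM in the control library. Rrm1, the large subunit of ribonucleotide reductase, was at 26.3 CPM in the Cre library and 17.7 CPM in the control library. The folds of these genes lay between 1.33 and 1.49. The exceptions were Cenpa, the histone H3 variant of centromeres, with 37.7 CPM in the Cre library and 51.7 CPM in the control library, Kif23, a kinesin of cytokinesis, with 17.1 CPM in the Cre library and 19.4 CPM in the control library, and the checkpoint kinase Bub1. Bub1 had a fold of 0.934 (0.78 to 1.12). Without the immature thymic T-like cells described below, the fold of the whole set was 1.16 (1.15 to 1.18).

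The plot of the gene sum by class shows the highest levels in lymphocytes and alveolar macrophages. Treg-like cells, regulatory T cells named by a Foxp3 UMI or by marker score, led both libraries among classes with 50 cells in each. They stood at 4145 CPM (3984 to 4311) in the Cre library and 4562 CPM (4386 to 4744) in the control library. NK-like cells followed in the Cre library, and T-like cells in the control library. Neutrophil-like cells, which do not divide once in tissue, were among the lowest, at 295 CPM (271 to 320.1) in the Cre library and 202 CPM (191.1 to 213.8) in the control library. The lowest level of all was in club or secretory-like cells of the control library, at 134 CPM. In a sum over a whole library, fewer cells of a type and less RNA per cell cannot be told apart, which is why the levels below are given class by class.

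**Figure D1:**
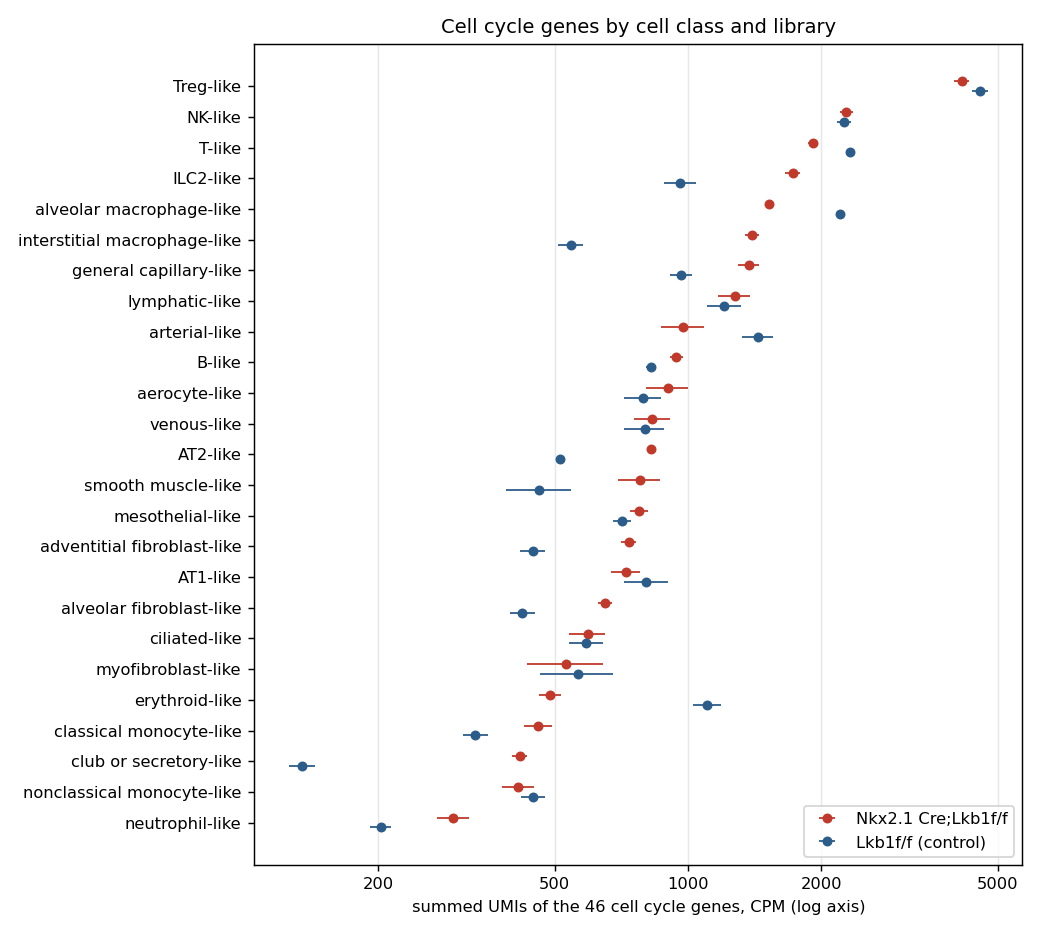
Summed CPM of the 46 genes (log axis) in each class with at least 50 cells per library, with Nkx2.1 Cre;Lkb1f/f in red above Lkb1f/f control in blue; bars are exact 95% intervals for counting error. Interstitial macrophage-like (1395 against 544 CPM), ILC2-like (1722 against 960) and AT2-like cells (826 against 515) stand further right in the Cre library, and alveolar macrophage-like cells (1523 against 2201) further left.

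The highest level of nearly every gene lay in 1 class. In the Cre library immature thymic T-like cells led for 45 of the 46 genes and Treg-like cells for Cenpa. In the control library, where only 18 immature thymic T-like cells were found, Treg-like cells led for 39. Kif23 departed from this in the control library. Neutrophil-like cells held 97.4 CPM of it in the Cre library, second to immature thymic T-like cells, and 81.6 CPM in the control library, where they were its highest class. Mki67, by contrast, gave a UMI in 0.354% of neutrophil-like cells of the Cre library and 1.05% of those of the control library. Cenpa stood apart in B-like cells, with 151 CPM in the Cre library and 173 CPM in the control library, where only Treg-like cells stood higher among the main classes. The heat map of single genes shows both.

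**Figure D2:**
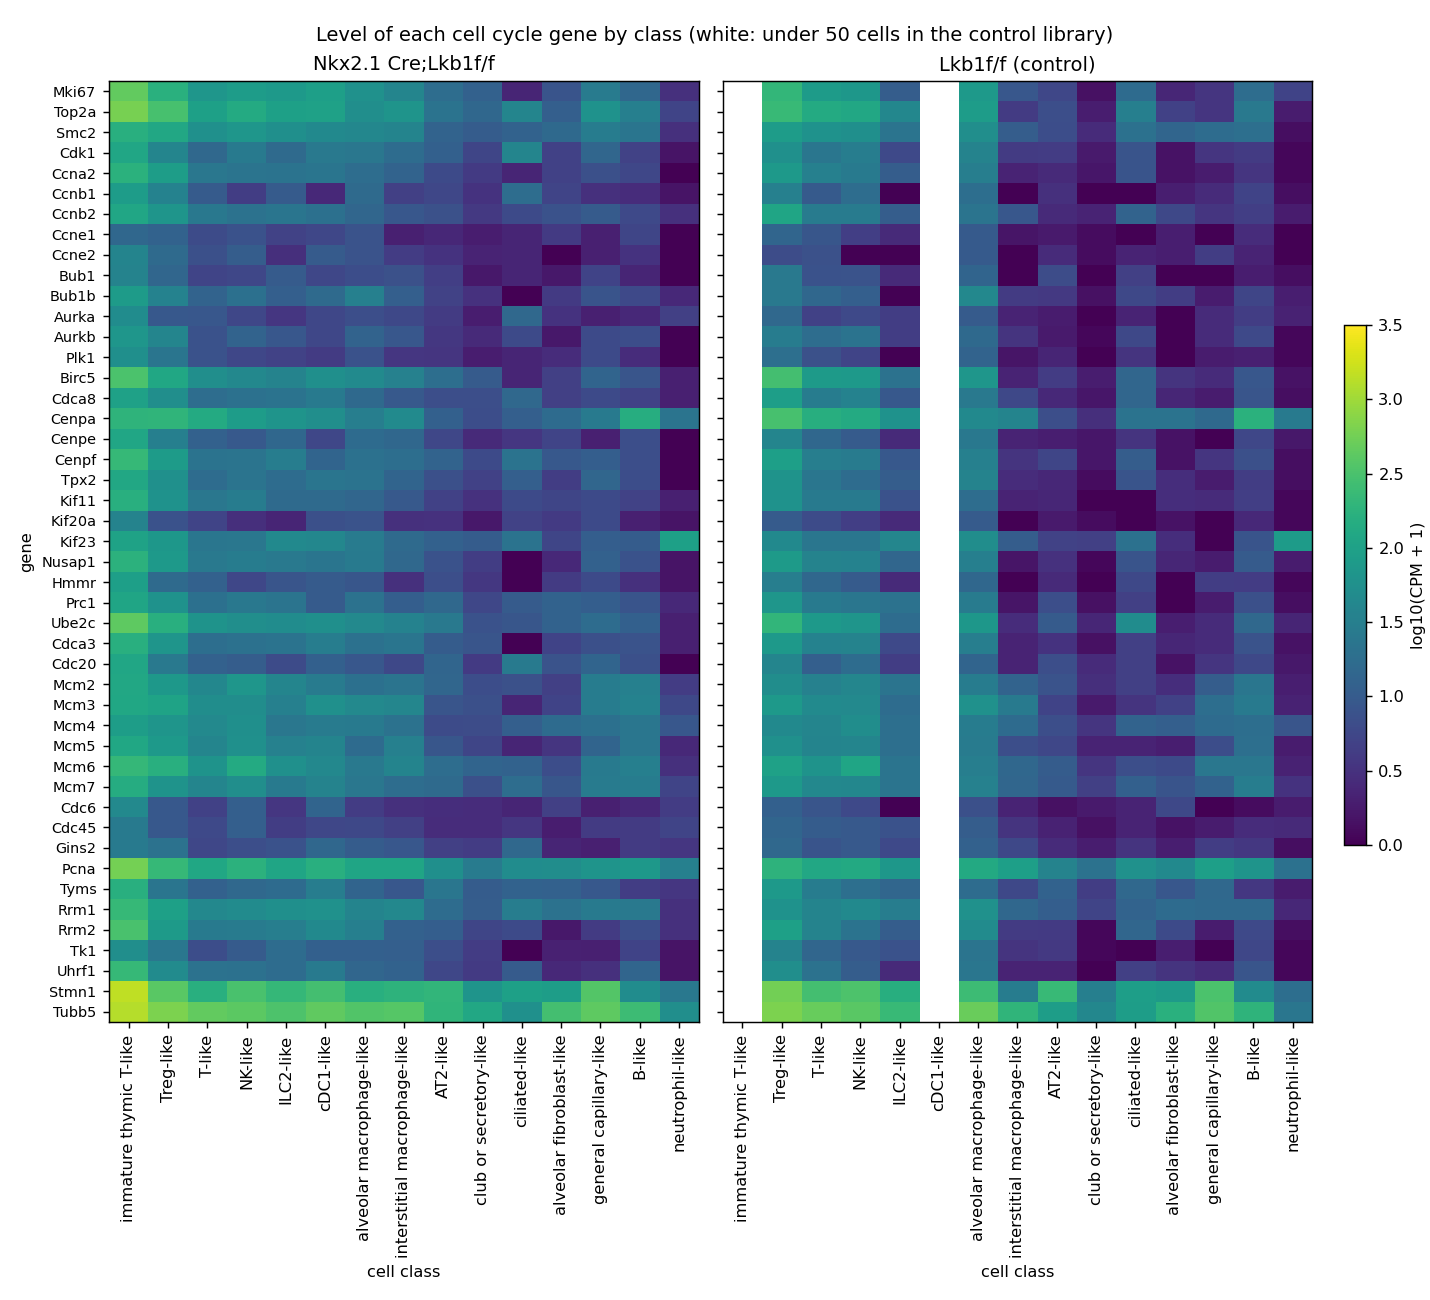
Level of each gene, as log10(CPM + 1), in 15 classes of the Nkx2.1 Cre;Lkb1f/f library (left) and the Lkb1f/f control library (right); white columns mark classes with under 50 control cells. Immature thymic T-like cells are brightest for 45 of the 46 genes in the left panel, Treg-like cells for 39 among all classes in the right, and Kif23 is bright in neutrophil-like and Cenpa in B-like cells of both.

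How closely each gene kept to dividing cells was described by its CPM in cells with at least 3 UMIs of the other genes, Stmn1 and Tubb5 left out, among 1000 UMIs per cell, and in cells with none. Ccna2, cyclin A2, which drives S phase and entry into mitosis, was at 174 CPM in cells with at least 3 and 0.354 CPM in cells with none, a ratio of 491 (355.7 to 697.7). Birc5, survivin of the chromosomal passenger complex, had a ratio of 326 (274.7 to 390.2), and Hmmr, a spindle-associated protein, one of 313 (219.7 to 462.2). At the other end Pcna, the sliding clamp of DNA polymerase that also serves repair, had a ratio of 8.07 (7.70 to 8.46), Mcm4 one of 8.37 (7.57 to 9.26) and Tubb5 one of 9.25 (9.03 to 9.48). Mitotic genes were not all alike in this, since Cenpa had a ratio of 9.60 and Kif23 one of 13.4, and of the replication genes Rrm2 had one of 181. All these ratios are over all kept cells, and they depended on the class. Cenpa had 85.3 in AT2-like, 17.7 in alveolar macrophage-like and 3.73 in T-like cells. Kif23 had 45.3, 28.3 and 12.9 in the same classes. The last base of Ccna2, Ccne2, Kif20a, Prc1, Ube2c, Cdc20, Mcm7, Gins2 and Tk1 lies within a gene of the opposite strand. Whether the counting used strand is not given in the sources used here, so reads of such partners cannot be told apart.

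At equal depth a larger share of Cre cells held these transcripts. After thinning to 1000 UMIs, 813 of 12853 Cre cells (6.33%, 5.91 to 6.76) and 443 of 10779 control cells (4.11%, 3.74 to 4.502) had at least 3 UMIs of the 46 genes. Thinning left out 1859 shallower Cre cells and 1669 shallower control cells. Without thinning the shares were 39.1% of Cre cells and 36.6% of control cells. Without Stmn1 and Tubb5 they were 3.85% of Cre cells (495 cells) and 2.42% of control cells (261 cells). In neutrophil-like cells, taken as a background type, the share was 0.593% (0.218 to 1.29) in the Cre library and 0.358% (0.144 to 0.736) in the control library, at median depths of 1516 and 2589 UMIs before thinning. Of the 495 Cre cells, 70 were alveolar macrophage-like, 56 T-like, 42 AT2-like and 37 immature thymic T-like. Of the 261 control cells, 76 were T-like, 50 alveolar macrophage-like and 8 AT2-like.

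**Figure D3:**
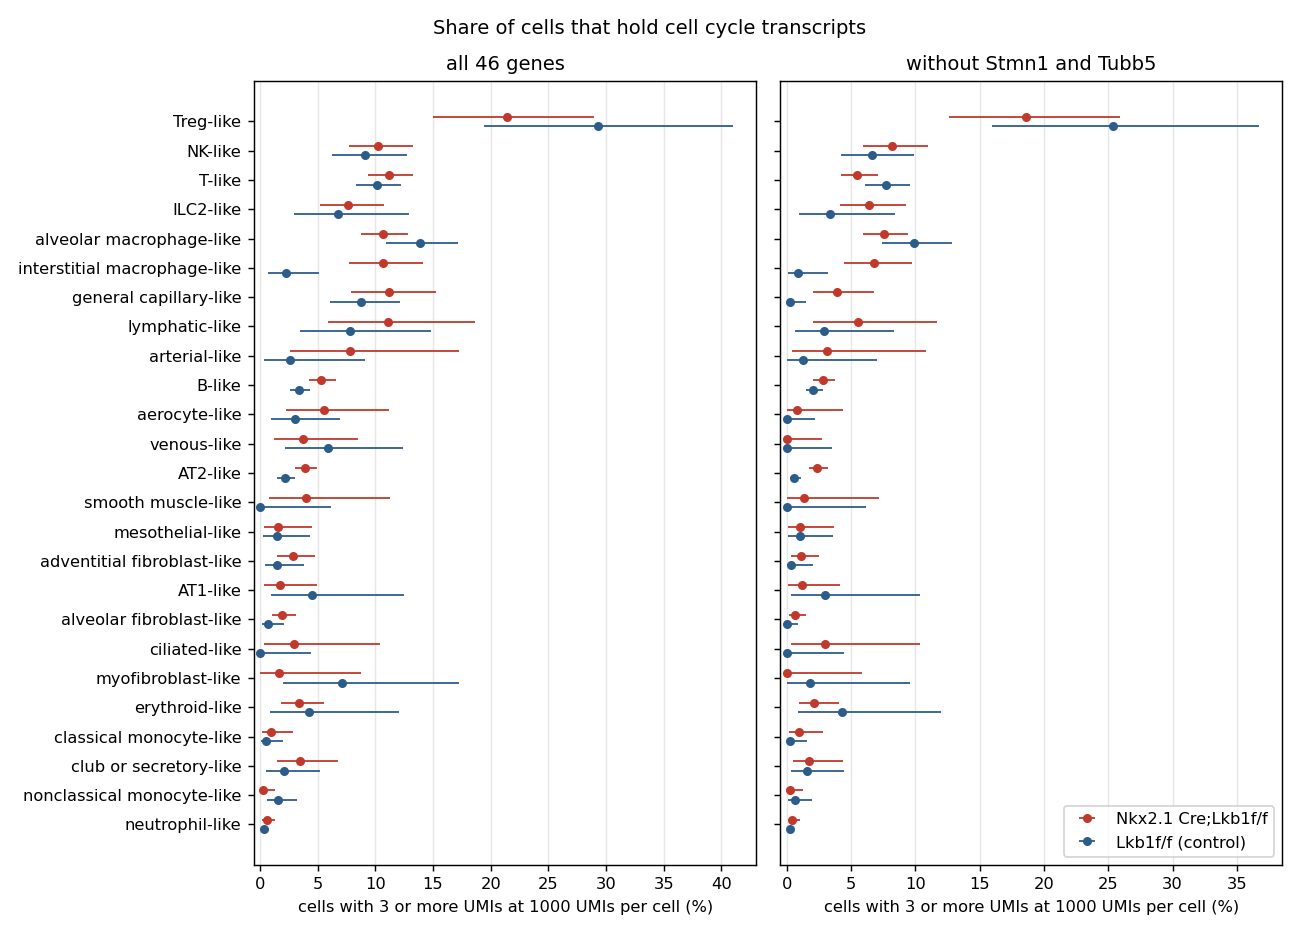
Share of cells with at least 3 UMIs of the genes after thinning each cell to 1000 UMIs, for all 46 genes (left) and without Stmn1 and Tubb5 (right), with Nkx2.1 Cre;Lkb1f/f in red above Lkb1f/f control in blue and exact 95% intervals. Treg-like cells are furthest right in both libraries; in the right panel AT2-like (2.38% against 0.574%), interstitial macrophage-like (6.75% against 0.893%) and general capillary-like cells (3.95% against 0.266%) stand apart by library.

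In AT2-like cells, the lineage that Cre marks, cell cycle genes were higher across almost the whole set. The sum was 826 CPM (811.3 to 840.3) in 1849 Cre cells and 515 CPM (503.7 to 527.2) in 1503 control cells, a fold of 1.60 (1.56 to 1.65). Of the 46 genes, all with at least 20 UMIs, 38 stood at least 1.5-fold above the all-gene median, beside 14.4% of all genes of this class. Only Bub1 stood as far below it, beside 8.23% of all genes. The median log2 ratio of the set, with 5 CPM added to each level, was 0.46 above the all-gene median. Median depth was lower in the Cre cells (7929 UMIs) than in the control cells (10228 UMIs).

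Proliferation markers and passenger complex genes were higher in AT2-like cells, and Birc5 had the largest fold of the 46 genes. Birc5 was at 17.5 CPM in the Cre library and 3.19 CPM in the control library, a fold of 5.47 (3.99 to 7.66). Mki67 was at 16.6 CPM in the Cre library and 4.58 CPM in the control library, a fold of 3.63 (2.76 to 4.83). Top2a was at 20.5 CPM in the Cre library and 5.90 CPM in the control library, a fold of 3.48 (2.73 to 4.47). All 3 genes of this first role, Mki67, Top2a and the condensin subunit Smc2, passed 1.5-fold. Cdca8, which with Birc5 and Aurkb forms the complex that corrects spindle attachment, was 3.93-fold higher (2.45 to 6.58).

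Cyclins, checkpoint genes and kinases of AT2-like cells were more mixed. Cdk1, the kinase of mitotic entry, was at 11.005 CPM in the Cre library and 3.19 CPM in the control library, a fold of 3.45 (2.48 to 4.89). Ccnb2, cyclin B2, had a fold of 3.97 (2.50 to 6.55). Ccne1 and Ccne2, the E cyclins of S phase entry, had intervals that include 1, as did the checkpoint gene Bub1b. Bub1, a kinase of the same checkpoint, was the reverse of its neighbours, with 3.43 CPM in the Cre library and 5.41 CPM in the control library, a fold of 0.633 (0.437 to 0.911).

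Spindle, kinetochore and ubiquitin ligase genes were higher in AT2-like cells without exception, with 7 of 7, 3 of 3 and 3 of 3 past 1.5-fold. Tpx2, which targets Aurora A to the spindle, was at 6.26 CPM in the Cre library and 1.46 CPM in the control library. Cenpe, a kinetochore motor, was at 4.48 CPM in the Cre library and 0.971 CPM in the control library. Cdca3, which prompts degradation of the mitotic inhibitor Wee1, was at 9.29 CPM in the Cre library and 2.22 CPM in the control library. Their folds lay between 4.19 and 4.61. Ube2c, the E2 enzyme of the anaphase-promoting complex, was at 24.9 CPM in the Cre library and 9.02 CPM in the control library, a fold of 2.76 (2.26 to 3.40).

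In summed level, replication genes of AT2-like cells moved by less. Their sum was 187 CPM in the Cre library and 108 CPM in the control library, a fold of 1.74 (1.63 to 1.85), while the mitotic sum was 240 CPM in the Cre library and 86.1 CPM in the control library, a fold of 2.79 (2.61 to 2.98). Shares at equal depth did not show a smaller difference for replication genes. At least 3 replication UMIs were held by 20 of 1766 Cre cells (1.13%) and 0 of 1394 control cells. At least 3 mitotic UMIs were held by 28 of these Cre cells (1.59%) and 5 of these control cells (0.359%). Of the 10 fork and licensing genes 7 passed 1.5-fold. Mcm4 alone of them was lower, with 5.27 CPM in the Cre library and 5.83 CPM in the control library, a fold of 0.905 (0.658 to 1.24). Rrm2, the small subunit of ribonucleotide reductase, had a fold of 3.40 (2.41 to 4.89), and Uhrf1, which keeps DNA methylation through replication, one of 3.69 (2.18 to 6.59). Stmn1 and Tubb5 parted ways. Stmn1 was at 202 CPM in the Cre library and 231 CPM in the control library, while Tubb5 was at 193 CPM in the Cre library and 88.6 CPM in the control library.

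Few cells carried these UMIs. Of the 3644 mitotic UMIs in AT2-like cells of the Cre library, 38 cells with at least 10 each held 82.6%, and in the control library 8 such cells held 63.7% of 1242. An Mki67 UMI was found in 66 Cre cells (3.57%) and 24 control cells (1.60%). At equal depth 69 of 1766 Cre cells (3.91%, 3.05 to 4.92) and 30 of 1394 control cells (2.15%, 1.46 to 3.06) had at least 3 UMIs of the 46 genes, a ratio of 1.82 (1.17 to 2.89), which was 1.21 with cells thinned to 2000 UMIs. Without Stmn1 and Tubb5, 42 of 1766 Cre cells (2.38%, 1.72 to 3.20) and 8 of 1394 control cells (0.574%, 0.248 to 1.13) did. The ratio of these shares was 4.14 (1.92 to 10.2), so its size depends on that pair of genes. Both of the shares without the pair lay above those of neutrophil-like cells by the same count, 0.396% in the Cre library and 0.256% in the control library, although the interval of the control share overlapped its background.

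Some of the AT2-like cells with cell cycle UMIs also held macrophage transcripts. All 8 markers of alveolar macrophages were found in the 42 Cre cells with at least 3 UMIs, at a summed 1293 CPM, against 310 CPM in the other AT2-like cells of that library. Of these 42 cells, 4 held over 100 such UMIs. In the control library 7 of the 8 markers were found in the 8 such cells, at 1640 CPM, with 1 cell over 100 such UMIs, and the others had 25.4 CPM. At least 5 macrophage marker UMIs or a UMI of Ptprc, the pan-leukocyte CD45 gene, were present in 10 of the 42 Cre cells and in 3 of the 8 control cells. Among all AT2-like cells they were present in 188 of 1849 Cre cells and 107 of 1503 control cells. Without all such AT2-like cells, the sum was 707 CPM in the Cre library and 480 CPM in the control library, a fold of 1.47 (1.43 to 1.52). The shares without Stmn1 and Tubb5 were then 32 of 1580 Cre cells (2.03%) and 5 of 1291 control cells (0.387%). Leaving these cells out thus lowered the fold of the sum and moved the ratio of these shares to 5.23 (2.02 to 17.2). The ratio over all 46 genes was then 1.67 (1.02 to 2.77).

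Sox9, a transcription factor of distal lung progenitors, was set beside the cell cycle genes in AT2-like cells. Its UMIs were counted among the same 1000 thinned UMIs per cell. Among Cre cells with a Sox9 UMI, 10 of 268 (3.73%, 1.80 to 6.75) had at least 3 thinned UMIs of the 46 genes, and among those without one 59 of 1498 (3.94%, 3.01 to 5.05). None of 1394 control AT2-like cells had a Sox9 UMI after this thinning, and their full counts were not searched for it.

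Other mitosis genes in AT2-like cells were mostly higher as well. The counts below stand beside the 14.4% of all genes of the class that were higher and the 8.23% that were lower. Of 49 other mitosis genes 46 had at least 20 UMIs, and 38 of these stood 1.5-fold above the all-gene median and none as far below. Pbk, a mitotic kinase, was at 4.94 CPM in the Cre library and 0.416 CPM in the control library. Of 43 other replication genes 39 were measured and 17 were higher. The 20 G1 cyclins, E2F and pocket protein genes were mixed and near that background, with 4 of 18 measured genes higher and 1 lower. Ccnd1, cyclin D1, the partner of Cdk4, was at 372 CPM in the Cre library and 158 CPM in the control library, a fold of 2.35 (2.23 to 2.46). Of 9 CDK inhibitors and antiproliferative genes 8 were measured and 4 were higher. Cdkn1a, the inhibitor p21, was at 112 CPM in the Cre library and 60.0 CPM in the control library.

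**Figure D4:**
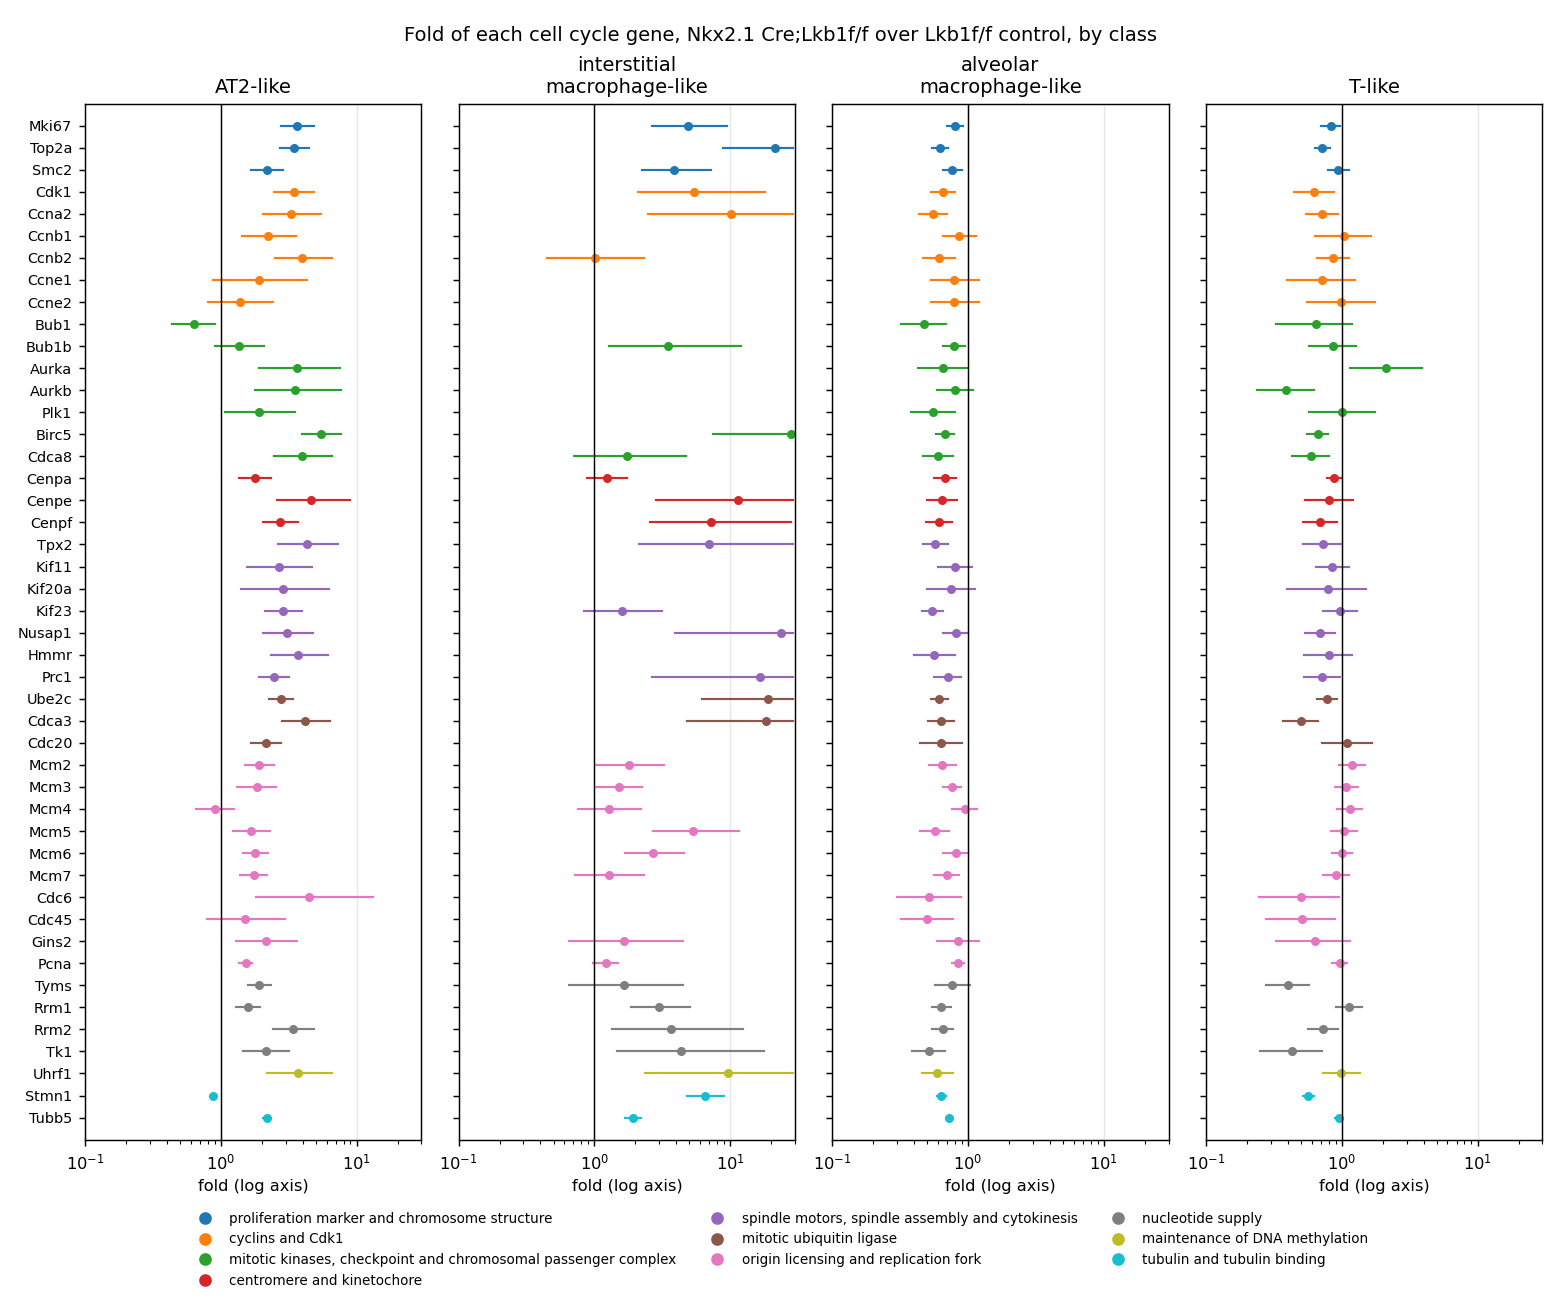
Fold of each of the 46 genes, Nkx2.1 Cre;Lkb1f/f over Lkb1f/f control (log axis), in 4 classes, coloured by role, with exact 95% intervals cut at the axis edge; genes with under 20 UMIs or with no control UMI in a class are not drawn. Points lie right of 1 in AT2-like cells except Bub1, Mcm4 and Stmn1, right of 1 in interstitial macrophage-like cells, and left of 1 in alveolar macrophage-like cells.

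Among the other epithelial classes, club or secretory-like cells of the airway had the higher sum in the Cre library, at 417 CPM (400.3 to 434.1) in 266 cells against 134 CPM (125.7 to 143.6) in 234 control cells. All 46 genes were higher, beside 81.7% of all genes of this class. Few cells lay behind this, since 5 cells held 68.2% of the mitotic UMIs in the Cre library and 44.1% in the control library. By the mean of per-cell CPM the fold was 1.60, in place of 3.101, and with classes from clusters it was 2.30. In the 4 Cre cells with at least 3 UMIs without Stmn1 and Tubb5, the 8 alveolar macrophage markers were all found, at a summed 3159 CPM, against 497 CPM in the other Cre cells of the class; none was found in the 3 such control cells, and the part of these markers in the result was not tested. At equal depth, 8 of 229 Cre cells (3.49%) and 4 of 194 control cells (2.06%) had at least 3 UMIs, and the ratio of 1.69 (0.454 to 7.69) includes 1. AT1-like cells, across whose thin bodies gases pass, had 724 CPM in the Cre library and 805 CPM in the control library, an order that the mean of per-cell CPM turned round (fold 1.15). In each library 1 AT1-like cell held much of their mitotic signal, 41.2% in the Cre library and 78.1% in the control library.

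Ciliated-like cells do not divide, but multiciliated cells are known to use mitotic regulators when they make basal bodies. Their summed level was near equal, at 593 CPM in the Cre library and 589 CPM in the control library. The richest cell held 32.7% of the mitotic UMIs in the Cre library and 82.9% in the control library. Without these cells, mitotic genes stood at 185 CPM in the Cre library and 49.0 CPM in the control library. Cdk1 was at 37.6 CPM in the Cre library and 7.23 CPM in the control library, and Cdc20, an activator of the anaphase-promoting complex, at 25.9 CPM in the Cre library and 3.62 CPM in the control library. Mki67 was at 1.30 CPM in the Cre library and 15.7 CPM in the control library. These rest on 29, 20 and 1 UMIs in the Cre library and 6, 3 and 13 in the control library. Of 67 thinned Cre cells 2 had at least 3 UMIs, and of 81 control cells 0, where the exact interval runs to 4.45% and the floor of 3 counts to 3.70%.

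Alveolar and interstitial macrophages differed in opposite directions. Alveolar macrophage-like cells had 1523 CPM (1498 to 1548) in the Cre library and 2201 CPM (2160 to 2243) in the control library, a fold of 0.692 (0.675 to 0.709). All 46 genes were lower in the Cre library, where 46.2% of all genes of the class were higher. At least 1.5-fold below the all-gene median stood 19 of 46, beside 9.04% of all genes, and none stood as far above, beside 10.1%. The relative median was -0.43 on the log2 scale.

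In alveolar macrophage-like cells the difference was alike across roles. Top2a was at 52.4 CPM in the Cre library and 84.2 CPM in the control library, a fold of 0.623 (0.545 to 0.712). Ccna2 was at 16.7 CPM in the Cre library and 30.1 CPM in the control library, a fold of 0.554 (0.439 to 0.699). Tk1, the salvage thymidine kinase, was at 10.8 CPM in the Cre library and 21.1 CPM in the control library. All 3 ubiquitin ligase genes were past 1.5-fold. Mcm4 was nearest to no difference, at 0.942 (0.763 to 1.17). Ccnd2, cyclin D2, outside the set, was at 328 CPM in the Cre library and 733 CPM in the control library. Of 48 measured other mitosis genes 30 were lower and 1 higher, beside the same 9.04% and 10.1% of all genes.

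The share of alveolar macrophage-like cells with the genes gave no clear order. At equal depth 99 of 925 Cre cells (10.7%, 8.78 to 12.9) and 70 of 505 control cells (13.9%, 10.97 to 17.2) had at least 3 UMIs, and the ratio of 0.772 (0.563 to 1.06) includes 1. An Mki67 UMI was found in 17.5% of Cre cells and 14.3% of control cells, the reverse order. Median depth was 9418 UMIs in Cre and 9210.5 UMIs in control cells.

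Interstitial macrophage-like cells, marked by C1q genes, had 1395 CPM (1342 to 1449) in 420 Cre cells and 544 CPM (508.7 to 580.1) in 235 control cells, a fold of 2.57 (2.38 to 2.77). All 46 genes were higher in the Cre library, beside 65% of all genes of the class. Top2a had 121 UMIs or 63.5 CPM in the Cre library and 5 UMIs or 3.003 CPM in the control library. Birc5 had 64 UMIs in the Cre library and 2 in the control library. Stmn1 was at 183 CPM in the Cre library and 28.2 CPM in the control library, a fold of 6.49 (4.78 to 9.001). Pcna was close to equal, at 113 CPM in the Cre library and 93.7 CPM in the control library.

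The same class differed in share. At equal depth 41 of 385 Cre cells (10.6%, 7.75 to 14.2) and 5 of 224 control cells (2.23%, 0.729 to 5.13) had at least 3 UMIs, a ratio of 4.77 (1.89 to 15.5), which was 1.87 with cells thinned to 2000 UMIs. Without thinning the order was reversed, at 48.1% of Cre cells and 59.6% of control cells, with median depths of 3896.5 UMIs in Cre and 6789 UMIs in control cells. In the 26 Cre cells that passed without Stmn1 and Tubb5, alveolar macrophage markers summed to 1819 CPM, from 4 of the 8 markers. In the other interstitial macrophage-like cells of that library they summed to 615 CPM, from all 8. The part of these markers in the result was not tested. Spp1 Arg1 macrophage-like cells were found in the Cre library only (359 cells, and 0 in the control library), with 897 CPM (865.3 to 929) and 23 of 319 cells (7.21%) with at least 3 UMIs. Dendritic cells of the cDC1-like class numbered 95 in the Cre library, where their sum was 2033 CPM (1924 to 2145), and 27 in the control library, too few to compare.

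In the lymphoid cells of the Cre library the largest level was in immature thymic T-like cells. These were T-lineage cells with a UMI of Rag1, Rag2, Dntt, Ptcra or Arpp21, or with their highest marker score for this class. There were 188 in the Cre library and 18 in the control library. The 46 genes stood at 9737 CPM (9467 to 10013) in the Cre library and 1097 CPM (831.2 to 1422) in the control library. They made up 1.28% of Cre cells and held 6.12% of all cell cycle UMIs of that library. Top2a was at 600 CPM, Mki67 at 462 CPM and Stmn1 at 1459 CPM in the Cre library. Of 172 thinned Cre cells 60 (34.9%, 27.8 to 42.5) had at least 3 UMIs, and 1 of 18 control cells. These gate genes serve T cell receptor assembly, and dividing thymocytes are known to express both kinds of gene. The gate was set after the data had been seen.

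Mature T cells showed a lower level in the Cre library. T-like cells had 1914 CPM (1869 to 1961) in the Cre library and 2315 CPM (2275 to 2355) in the control library, a fold of 0.827 (0.803 to 0.852). At least 1.5-fold below the all-gene median stood 20 of 46 genes, beside 7.51% of all genes, and 1, Aurka, stood as far above, beside 12.2%. Aurka, the kinase of centrosome maturation, was at 7.96 CPM in the Cre library and 3.78 CPM in the control library. Tyms, thymidylate synthase, was at 11.4 CPM in the Cre library and 28.4 CPM in the control library, a fold of 0.40 (0.276 to 0.570). Aurkb was at 6.54 CPM in the Cre library and 16.7 CPM in the control library. The MCM genes were near equal, from Mcm7 with a fold of 0.914 to Mcm2 with one of 1.19.

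Shares of T-like cells gave no single order. With all 46 genes 11.2% of Cre cells (114 of 1017) and 10.1% of control cells (100 of 986) had at least 3 UMIs, and without Stmn1 and Tubb5 5.51% of Cre cells and 7.71% of control cells. Both ratios, 1.11 (0.838 to 1.46) and 0.714 (0.497 to 1.02), include 1. With the 27 mitotic genes alone 31 Cre cells (3.05%) and 49 control cells (4.97%) passed, a ratio of 0.613 (0.378 to 0.981), which lies below 1. Depth differed, with medians of 3041 UMIs in Cre and 5046 UMIs in control cells. Among T-like cells with Cd8 and no Cd4 UMIs the fold was 0.895 (0.860 to 0.932), and among those with Cd4 and no Cd8 it was 0.806 (0.756 to 0.860). In Treg-like cells 31 of 145 Cre cells (21.4%) and 22 of 75 control cells (29.3%) had at least 3 UMIs, a ratio of 0.729 (0.409 to 1.32).

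ILC2-like cells, innate lymphocytes that release type 2 cytokines, had 1722 CPM (1657 to 1790) in 396 Cre cells and 960 CPM (883.5 to 1041) in 118 control cells, a fold of 1.79 (1.64 to 1.97). Mki67 had 118 UMIs or 77.7 CPM in the Cre library and 6 UMIs or 9.90 CPM in the control library. Uhrf1 had 25 UMIs in the Cre library and 1 in the control library. Cre CPM was above control CPM for 43 of 46 genes, beside 64.7% of all genes of the class. The share of cells with at least 3 UMIs was 7.65% (30 cells) in the Cre library and 6.78% (8 cells) in the control library, and its ratio of 1.13 (0.506 to 2.85) includes 1. With classes taken from clusters instead of single cells, the fold was 1.33.

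NK-like and B-like cells were closer to equal. NK-like cells had 2277 CPM in the Cre library and 2251 CPM in the control library, with replication genes higher (740 against 580 CPM) and mitotic genes lower (795 against 932 CPM) in the Cre library. B-like cells had 941 CPM in the Cre library and 825 CPM in the control library, and 5.33% of Cre cells and 3.38% of control cells held at least 3 UMIs at equal depth. Without Stmn1 and Tubb5 the ratio in B-like cells, 1.34 (0.844 to 2.15), includes 1.

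In endothelial and stromal cells mitotic genes were higher in several classes of the Cre library, often through a handful of cells. General capillary-like cells had 320.5 CPM of mitotic genes in the Cre library and 67.0 CPM in the control library, a fold of 4.79 (3.74 to 6.19), with replication genes at 1.19 (0.991 to 1.42). At equal depth 34 of 304 Cre cells (11.2%) and 33 of 376 control cells (8.78%) had at least 3 UMIs of the 46 genes, and the ratio of 1.27 (0.766 to 2.12) includes 1. Without Stmn1 and Tubb5, 12 of the Cre cells (3.95%) and 1 of the control cells (0.266%) did. With the replication genes alone, 7 of the Cre cells (2.30%) and 0 of the control cells did. The 5 richest cells held 66.5% of the mitotic UMIs in the Cre library and 42.0% in the control library. In alveolar fibroblast-like cells mitotic genes were at 148 CPM in the Cre library and 63.4 CPM in the control library, of which the 5 richest cells held 66.9% in the Cre library and 43.7% in the control library. Adventitial fibroblast-like cells were at 168 CPM in the Cre library and 52.1 CPM in the control library. In both fibroblast classes replication genes stood nearer to equal, with intervals of the fold of 1.003 to 1.36 in the alveolar and 0.938 to 1.26 in the adventitial class.

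In several classes 1 cell decided the level, and in some of them also the direction. Without the richest cell of each library, mitotic genes of AT1-like cells went from 104 to 61.9 CPM in the Cre library. In the control library they went from 198 to 45.9 CPM, so the order turned. It also turned in arterial-like, ciliated-like, nonclassical monocyte-like, mesothelial-like and lymphatic-like cells. In arterial-like cells of the control library 1 cell of 30831 UMIs held 91.8% of the mitotic UMIs, and the level without it was 62.7 CPM in place of 709 CPM. In the Cre library the level was 190 CPM, and 116 CPM without the richest cell. Smooth muscle-like cells had 303.5 CPM in the Cre library, 95.4 CPM without the richest cell, against 56.5 CPM and 16.7 CPM in the control library. Erythroid-like cells had 489 CPM of the 46 genes in the Cre library and 1104 CPM in the control library, where the richest of 104 cells held 37.9% of the mitotic UMIs.

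The summed levels of replication and mitosis genes did not move by the same factor in every class. The mitotic fold exceeded the replication fold in AT2-like cells (2.79 against 1.74), interstitial macrophage-like cells (4.36 against 1.76), club or secretory-like cells (6.39 against 2.45) and general capillary-like cells (4.79 against 1.19). In T-like cells it was the smaller, at 0.778 (0.742 to 0.814) beside 0.943 (0.889 to 1.00003). Alveolar macrophage-like cells had like values, 0.668 (0.642 to 0.695) and 0.726 (0.690 to 0.764). These are folds of summed levels, and shares at equal depth need not follow them. At least 3 mitotic UMIs were held by 3 of 229 Cre and 3 of 194 control club or secretory-like cells. At least 3 replication UMIs were held by 0 of both. In general capillary-like cells 6 of 304 Cre and 0 of 376 control cells passed with mitotic genes, and 7 and 0 with replication genes.

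**Figure D5:**
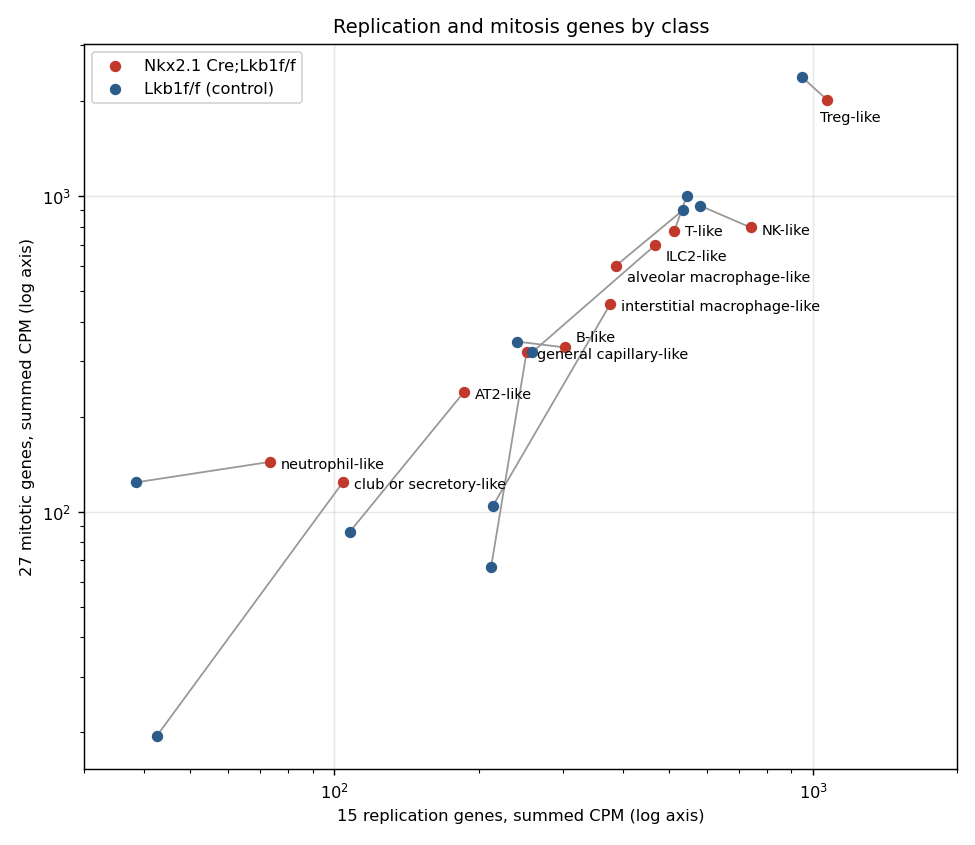
Summed CPM of the 27 mitotic genes against that of the 15 replication genes (both log axes) in 11 classes, with Nkx2.1 Cre;Lkb1f/f in red (labelled) and Lkb1f/f control in blue, joined by a grey line. The lines of interstitial macrophage-like and general capillary-like cells run steeply upward to the Cre point, while those of T-like and alveolar macrophage-like cells run downward.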

How the data were processed

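The authors deposited whole-number UMI counts for each gene in each barcode. The submitters' processing notes name Cell Ranger 3.1.0, STAR and mm10, without roles or settings. Barcodes with under 200 genes, under 500 UMIs or over 20% mitochondrial UMIs were removed, as were doublets called by Scrublet (scanpy 1.11.5, expected rate 0.06; 399 Cre and 415 control barcodes). This left 74752644 UMIs in the Cre library and 68977184 UMIs in the control library. Each cell took the class whose markers it held most of (score of at least 0.15, at least 2 markers, margin of at least 0.03). Cells so named T, Treg or immature thymic T were then split without regard to score. A UMI of Rag1, Rag2, Dntt, Ptcra or Arpp21 made such a cell immature thymic T-like. Failing that, a Foxp3 UMI made it Treg-like. Cycle genes were not used. Counts were summed per class and library as CPM, with exact Poisson, conditional ratio and Clopper-Pearson 95% intervals (scipy 1.17.1). List medians used log2 CPM with 5 CPM added and genes with at least 20 UMIs; called genes lay at least 1.5-fold from the all-gene median. With 1 library per genotype no test was made. Only the ratio interval was tested on simulated data, with independent Poisson counts for single genes. Cell naming, thinning, shares and list medians were not tested in this way. The genes, lists, markers and rules for named genes (at most 12 members in each direction per class by the interval bound nearest 1) were chosen with earlier results of these data known. Alternatives were doublets kept, a stricter cell filter, cluster classes, per-cell means, other pseudocounts, thresholds and depths, and the set without Stmn1 and Tubb5.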

Additional observations from a re-analysis of the deposited data

How the results depend on the processing

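The direction of the summed level was kept under all alternatives run over all cells and in AT2-like, ILC2-like, T-like, alveolar macrophage-like and interstitial macrophage-like cells. It turned in arterial-like and smooth muscle-like cells, where the mean of per-cell CPM gave folds of 1.94 and 0.724, in place of 0.678 and 1.68. Folds nearer to 1 also crossed it under at least 1 alternative in AT1-like (1.15 by the per-cell mean, in place of 0.899), aerocyte-like, nonclassical monocyte-like, myofibroblast-like, NK-like, ciliated-like and venous-like cells. With that mean the fold was 1.34 over all cells, 1.45 in AT2-like, 1.52 in ILC2-like, 0.856 in T-like and 0.766 in alveolar macrophage-like cells. With classes from clusters it was 1.48 in AT2-like, 1.33 in ILC2-like, 0.888 in T-like, 0.658 in alveolar macrophage-like and 1.93 in interstitial macrophage-like cells, and the list medians were 0.071 in ILC2-like and -0.49 in alveolar macrophage-like cells. Without Stmn1 and Tubb5 the fold was 2.20 in AT2-like and 2.02 in ILC2-like cells, and the share ratio 4.14 in AT2-like and 0.714 in T-like cells, against 1.11 in T-like cells with all genes. At 5 or more UMIs the share ratio was 3.95 in AT2-like and 0.663 in T-like cells, and at 2000 UMIs 1.87 in interstitial macrophage-like cells. With 20 CPM added the list medians were 0.075 over all cells, 0.19 in AT2-like, 0.34 in ILC2-like, -0.23 in T-like and -0.26 in alveolar macrophage-like cells; with all genes of at least 1 UMI the first was 0.22. Doublets kept gave 1.52 in AT2-like cells and the stricter filter 0.861 in T-like cells. Alternatives chosen after seeing the data gave 1.16 over all cells without immature thymic T-like cells and 1.47 in AT2-like cells without cells with immune markers. The causes were not tested. No paired analysis was possible because each genotype has 1 library. Depth limits small classes, in which single cells carry much of the sum, and intervals cover counting error only.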
